A study of Mus musculus with 30 samples.

Results

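The genes described here are 6 matrix metalloproteinases (Mmp2, Mmp9, Mmp11, Mmp14, Mmp15 and Mmp19) that lie outside the metalloproteinase cluster of chromosome 9, and 3 tissue inhibitors of metalloproteinases (Timp1, Timp2 and Timp3). These 9 genes were chosen by name, out of 21911 protein-coding genes of the GENCODE annotation on the main chromosomes. Acetylated lysine 27 of histone H3, or H3K27ac, marks promoters and enhancers in use, and its peaks at these genes were read from lists made by chromatin immunoprecipitation and sequencing. For each list, peaks within 2.5 kb of a start site of the gene were taken as promoter peaks, and all peaks within 50 kb of the gene as its neighbourhood. Positions are 1-based and in build mm10.

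The series holds 30 samples in 12 groups, of which 9 samples in 4 groups are H3K27ac. CK1750 and Tnm2, established lines of mouse lung adenocarcinoma cells, were cultured with UNC0638 at 1 µM or with its solvent DMSO. UNC0638 inhibits G9a and Glp, the enzymes that mono- and dimethylate lysine 9 of histone H3. CK1750 had 3 samples with DMSO and 2 with UNC0638, and Tnm2 had 2 samples with each. By the labels, 2 of the 3 CK1750 DMSO samples are sequencing runs of replicate 1, and both CK1750 UNC0638 samples carry the number of replicate 2, so that these groups have 2 and 1 replicate numbers. The Tnm2 groups have 2 each. The labels give neither a genotype of the lines nor the length of treatment, and tie all samples of a group to 1 merged list. The lists are named by line and agent, first CK1750 DMSO and CK1750 UNC0638, then Tnm2 DMSO and Tnm2 UNC0638, and values without a name follow this order. The spread between replicates could not be measured from 1 list per group. No difference between lists could be tested, and every comparison below is a description of 4 lists.

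Metalloproteinases are zinc enzymes that cut collagens, laminins and other proteins around cells. They are made as inactive proenzymes, and Timps hold them in check by binding the active site one to one. In lung tumours the balance of proteases and inhibitors at the cell surface is known for its part in invasion, and many of these enzymes are made by stromal and inflammatory cells rather than by the tumour cells. The samples here are cultured lines of tumour cells.

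Of the 9 genes, Mmp14 and Timp2 had a promoter peak in all 4 lists. Mmp2, Mmp9 and Mmp15 had none in any list. The other 4 genes, Mmp11, Mmp19, Timp1 and Timp3, had a promoter peak in some lists only. The sequences upstream of the start sites are shown first for the 6 genes found in the RefSeq promoter table (GRCm38.p6), since the peaks below are given by their distance from start sites. Each line holds the 250 bases before the RefSeq start, 5′ to 3′ on the strand of the gene. Capitals mark matches to 5 motifs on either strand, and neighbouring matches can overlap. The GC box was searched as GGGCGG. For the motif bound by ETS factors the letters were AGGAAG. The motif of the AP-1 factors (Fos and Jun proteins) was written as TGANTCA, where N is any base. The TATA box was searched as TATAAA. The CCAAT box was searched by the letters of its name.
Timp1 promoter, chrX:20869916-20870165, plus strand: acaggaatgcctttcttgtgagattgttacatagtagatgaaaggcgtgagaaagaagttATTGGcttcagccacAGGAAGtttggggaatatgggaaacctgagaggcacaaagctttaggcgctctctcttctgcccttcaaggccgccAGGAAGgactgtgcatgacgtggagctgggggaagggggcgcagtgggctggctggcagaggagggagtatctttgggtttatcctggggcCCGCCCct
Timp2 promoter, chr11:118355412-118355661, minus strand: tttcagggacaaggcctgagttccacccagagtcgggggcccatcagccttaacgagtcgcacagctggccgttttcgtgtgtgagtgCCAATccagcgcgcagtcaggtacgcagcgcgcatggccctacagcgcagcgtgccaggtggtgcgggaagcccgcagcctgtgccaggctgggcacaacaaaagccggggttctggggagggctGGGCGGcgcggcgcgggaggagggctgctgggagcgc
Timp3 promoter, chr10:86300162-86300411, plus strand: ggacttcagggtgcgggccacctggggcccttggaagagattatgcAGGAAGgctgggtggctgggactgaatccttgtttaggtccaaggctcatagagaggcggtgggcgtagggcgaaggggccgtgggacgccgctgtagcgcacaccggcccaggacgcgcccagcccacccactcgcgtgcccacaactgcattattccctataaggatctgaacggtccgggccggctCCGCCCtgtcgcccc
Mmp11 promoter, chr10:75932503-75932752, minus strand: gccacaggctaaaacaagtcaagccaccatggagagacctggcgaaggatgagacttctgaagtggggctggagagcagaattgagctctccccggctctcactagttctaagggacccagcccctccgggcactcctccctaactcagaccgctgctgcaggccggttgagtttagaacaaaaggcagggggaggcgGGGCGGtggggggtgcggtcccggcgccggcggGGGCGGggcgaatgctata
Mmp14 promoter, chr14:54431348-54431597, plus strand: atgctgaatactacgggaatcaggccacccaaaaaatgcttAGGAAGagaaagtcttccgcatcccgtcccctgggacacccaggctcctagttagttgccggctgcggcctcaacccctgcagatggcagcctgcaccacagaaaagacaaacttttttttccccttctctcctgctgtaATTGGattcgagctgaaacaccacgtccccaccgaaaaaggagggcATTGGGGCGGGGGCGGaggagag
Mmp15 promoter, chr8:95352046-95352295, plus strand: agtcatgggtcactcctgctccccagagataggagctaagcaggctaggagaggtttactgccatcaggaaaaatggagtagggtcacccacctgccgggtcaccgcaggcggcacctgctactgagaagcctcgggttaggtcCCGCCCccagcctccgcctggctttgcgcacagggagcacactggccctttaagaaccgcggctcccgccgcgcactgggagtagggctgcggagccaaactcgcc

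A GC box match was present in all 6 sequences, against 32.7% of the 32851 promoters of the table. Mmp11 and Mmp14 held 2 matches each, and in Mmp14 they lie side by side next to a CCAAT box match. CCAAT box matches were found in Mmp14, Timp1 and Timp2 (33.8% of promoters), and ETS matches in Mmp14, Timp1 and Timp3 (29.5%). No sequence held the AP-1 letters (6.75% of promoters) or the TATA box letters (12.4%). Over the 300 bases that reach 50 bases past the start, GC content was 68.7% in Timp2, 67% in Timp3 and Mmp11 and 66% in Mmp15. It was 56% in Mmp14 and 55% in Timp1, against a median of 52.7% over the table. The ratio of observed to expected CpG was 0.718 in Timp2, 0.714 in Timp3, 0.674 in Mmp15, 0.573 in Mmp11 and 0.425 in Mmp14. Timp1 had 0.384, equal to the median of the table to 3 digits. Mmp15 thus had a GC-rich promoter with no peak in any list, whereas Mmp14, with a lower GC content, had a peak in all. Mmp2, Mmp9 and Mmp19 are named only.

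The lists held 27367 peaks in CK1750 DMSO, 24601 in CK1750 UNC0638, 30641 in Tnm2 DMSO and 18794 in Tnm2 UNC0638. The list of Tnm2 UNC0638 is the shortest, so an absent peak there can be a weak one that missed the cutoff. A peak score is -10 log10 of the P value of the peak caller, which starts at 50 in these lists and grows with depth. Depth is unknown. Scores are given as listed, and lists were compared by percentiles, the percentage of peaks of the same list with an equal or lower score. These percentiles still depend on how many weak peaks a list holds. For the promoter peaks of Timp2, Timp3 and Mmp14 they are therefore also given within the 18794 highest-scoring peaks of every list. That is the length of the shortest list. Percentiles of all other single peaks are from the full lists only, where a difference between treatments cannot be told apart from list length. Markers of lung epithelial tumour cells had promoter peaks for 8 of 10 genes, and for 9 in Tnm2 UNC0638, with Epcam at none in any list. Of 7 fibroblast markers only Col1a1 had one, in 3 lists, and of 4 endothelial markers only Pecam1, in the Tnm2 lists. None of 6 leukocyte markers had one.

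A promoter peak was listed for 4 of the 9 genes in CK1750 DMSO, 4 in CK1750 UNC0638, 4 in Tnm2 DMSO and 5 in Tnm2 UNC0638. Among all protein-coding genes the share was 50%, 49.1%, 49.4% and 41.3% in the same order. The 9 genes as a set thus stood near the background in each list. The 2 genes with a promoter peak in all 4 lists compare with 39.3% of all genes, the 3 genes with none in any list with 46.0%, and the 4 with a changing state with 14.8%. Of the 3 inhibitors, 2, 2, 2 and 3 had a promoter peak in the order of the lists, and of the 6 metalloproteinases 2 in each list. With lists of equal length Timp1 had one in Tnm2 UNC0638 only. At a score of at least 100 Timp1 had none, and Timp3 had one in Tnm2 DMSO only. With the stricter request that the peak cover a start site of the gene itself, the numbers of genes were 4, 3, 3 and 5, against 45.2%, 45.5%, 43.6% and 36.7% of all genes.

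The highest-scoring promoter peak of the genes that had one stood at a median percentile of 74.1 in CK1750 DMSO, 67.6 in CK1750 UNC0638, 60.8 in Tnm2 DMSO and 22.1 in Tnm2 UNC0638. Over all genes with a promoter peak the medians were 77.2, 74.1, 77.3 and 69.1. The 4 or 5 genes behind each median differ between the lists. Against the medians over all genes, the promoter peak of Timp2 ranked higher in each list and that of Mmp14 in CK1750 DMSO only, and those of the other genes that had one ranked lower.

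**Figure D1:**
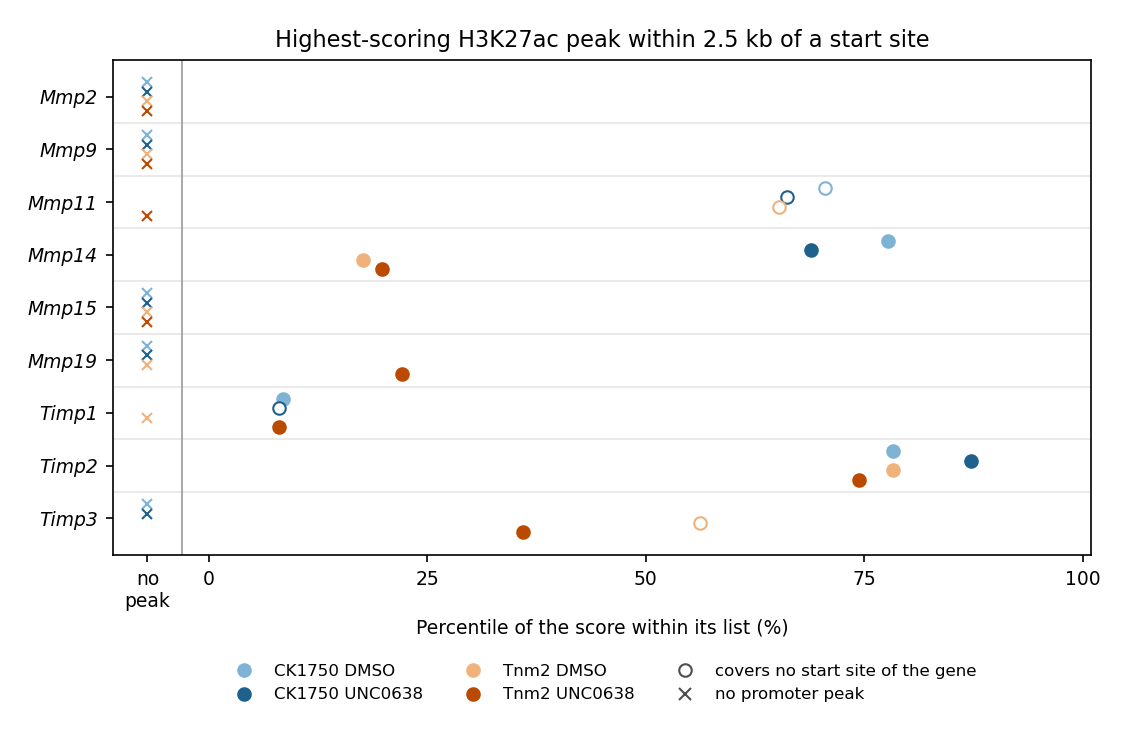
Percentile of the score within its list (horizontal axis, %) of the highest-scoring H3K27ac peak within 2.5 kb of a start site, for each of the 9 genes (rows) and the 4 lists (colours); 1 merged list per group, so there are no error bars. Crosses mark genes with no such peak, and open circles mark peaks that cover no start site of the gene. Timp2 sits between 74.4 and 87.3 in all lists, Mmp14 at 77.8 and 68.9 in CK1750 but 17.7 and 19.8 in Tnm2, and Timp1 below 10 wherever it has a peak.

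Timp2 encodes an inhibitor that also takes part in the activation of the Mmp2 proenzyme by Mmp14. It lies at chr11:118301069-118355740 on the minus strand. A peak over its start site scored 546.32 in CK1750 DMSO, 989.14 in CK1750 UNC0638, 413.44 in Tnm2 DMSO and 236.47 in Tnm2 UNC0638. The percentiles were 78.3, 87.3, 78.3 and 74.4. The promoter peak was thus in the upper part of each list. Within lists of equal length the percentiles were 68.3, 83.4, 64.7 and 74.4. CK1750 was then the higher under both treatments and UNC0638 in both lines, whereas in the full lists Tnm2 was lower with UNC0638. Its width was similar in all, 2241, 2349, 2246 and 2097 bp. Over protein-coding genes with a promoter peak in all 4 lists, Pabpc1 and Rab8a had the percentiles most like those of Timp2, with a largest difference of 2.84 and 3.0 percentage points over the 4 lists.

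The strongest peak near any of the 3 inhibitor genes was not on a start site. A broad peak between genes, centred about 6.2 kb upstream of Timp2, scored 3150.1, 2889.24, 1883.45 and 1040.35 in the order of the lists. It ranked at percentiles of 99.9, 98.0, 97.7 and 97.9. With widths of 4036, 3854, 3538 and 3775 bp it was wider than the promoter peak in each list. The part shared by all lists was chr11:118360168-118363705, 3538 bp that hold no annotated start site and 0 matches to the AP-1 letters. Over 4804 regions that were in all 4 lists and off start sites there were 0.544 AP-1 matches per kb.

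**Figure D2:**
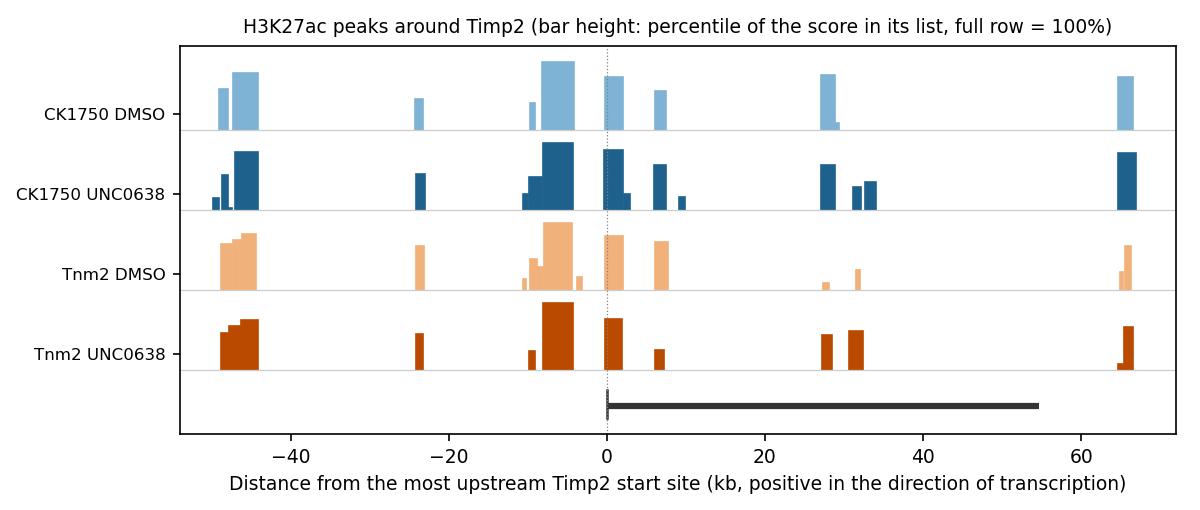
H3K27ac peaks around Timp2 in the 4 lists (rows), by distance in kb from its most upstream start site, positive in the direction of transcription; bar width is peak width, bar height the percentile of the score within the list, and the dark line below is the gene. The broad peak upstream of the start site and the peak on the start site are in every row, while the peaks inside the gene vary between rows.

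Timp2 also had more peaks in its neighbourhood than most genes. Within 50 kb there were 10 peaks in CK1750 DMSO, 16 in CK1750 UNC0638, 15 in Tnm2 DMSO and 12 in Tnm2 UNC0638. With lists of equal length the numbers were 9, 11, 9 and 12, so that the lower number of Tnm2 UNC0638 than of Tnm2 DMSO was turned. In the full lists, as many or more were found at 6.03%, 0.662%, 1.99% and 0.949% of protein-coding genes, which is a count not corrected for gene length. Joined over the lists, these peaks formed 15 regions, of which 7 were in all 4 lists. Besides the promoter and the upstream region, the constant regions were 2 in introns of Timp2, about 6.8 and 28.0 kb downstream of the start site, 1 between genes about 23.6 kb upstream, and those at the start sites of Usp36 and Lgals3bp. The intron peak at 28.0 kb ranked at 80.3, 66.1, 9.75 and 50.7. In the full lists that is high in CK1750 under both treatments, low in Tnm2 DMSO and in between in Tnm2 UNC0638. The peak of Tnm2 DMSO scored 56.24, close to the cutoff of 50.

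Timp3 encodes the inhibitor that binds to the extracellular matrix and that also blocks several ADAM and ADAMTS proteases. It lies at chr10:86300372-86349506 on the plus strand, inside Syn3, which is read from the other strand. No promoter peak was listed in either CK1750 list. In Tnm2 DMSO a peak over the start site scored 121.67 (percentile 45.0), and a second peak 446 bp from the nearest start site scored 169.72 (percentile 56.2). In Tnm2 UNC0638 the peak over the start site scored 88.05 (percentile 36.0). Within lists of equal length the highest promoter peak ranked at 28.6 with DMSO and 36.0 with UNC0638, the reverse of the order in the full lists. The promoter peak of Timp3 was thus seen in Tnm2 and not in CK1750, under both treatments, a pattern shared by 151 of all protein-coding genes, 0.689%.

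An intron of Timp3 held a peak in all 4 lists, about 39.8 kb from the first start site, with scores of 164.17, 171.97, 181.92 and 55.66 and percentiles of 51.9, 48.7, 58.3 and 7.60. It was the only peak of the neighbourhood in CK1750 DMSO. A further intron region about 10.4 kb from the start site was listed with UNC0638 in both lines and with DMSO in neither. Its peaks scored 53.62 and 59.46 in CK1750 and 56.74 in Tnm2, close to the cutoff of 50. In all, 1, 3, 7 and 3 peaks lay within 50 kb of Timp3 in the order of the lists. The 7 of Tnm2 DMSO include 4 regions that no other list had. Tnm2 DMSO was the longest list, and 17.4% of all regions joined over the lists were in it alone. Near the genes described here, taken as a set, this share was 14.6%, or 7 of 48 regions.

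Timp1 encodes a secreted inhibitor of most metalloproteinases. It lies at chrX:20870166-20874735 on the plus strand, inside Syn1, which is read from the other strand. Its promoter peak scored 55.55 in CK1750 DMSO, 58.38 in CK1750 UNC0638 and 56.1 in Tnm2 UNC0638, and no peak was listed in Tnm2 DMSO. The percentiles were 8.53, 8.07 and 8.09. All 3 peaks were thus just above the cutoff of 50. With only the 18794 highest-scoring peaks of every list, the peak of Tnm2 UNC0638 was the only one left, so Timp1 then had no promoter peak in CK1750. The peak of CK1750 UNC0638 ended 48 bp before the start site and covered none. The neighbouring peak at the start site of Araf scored 214.82, 211.2 and 113.78 in the first 3 lists (percentiles 58.8, 54.4 and 42.5) and was missing in Tnm2 UNC0638. The presence pattern of Timp1 was shared by 63 protein-coding genes, 0.288%.

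Mmp14 encodes a metalloproteinase anchored in the membrane, which cuts collagen and activates the Mmp2 proenzyme. It lies at chr14:54431612-54445364 on the plus strand. The peak over its start site scored 528.56 in CK1750 DMSO, 379.73 in CK1750 UNC0638, 64.87 in Tnm2 DMSO and 66.19 in Tnm2 UNC0638. As percentiles these were 77.8, 68.9, 17.7 and 19.8. Both CK1750 values lay above both Tnm2 values. Widths were 1846 and 2013 bp in CK1750 and 593 and 680 bp in Tnm2. With only the 18794 highest-scoring peaks of every list, the peak of Tnm2 DMSO was no longer listed and the other 3 were, at percentiles of 67.6, 59.3 and 19.8. The order of the lines thus held there, and no treatment difference can be given for Tnm2.

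The start sites next to Mmp14 varied in other ways. The peak at Mrpl52, which encodes a mitochondrial ribosomal protein, ranked at 75.3, 64.4, 65.6 and 56.5. That at Lrp10 ranked at 71.1, 69.9, 63.8 and 26.0, so in the full lists the lines were close with DMSO and far apart with UNC0638. Slc7a7, an amino acid transporter gene, had a peak at one start region in Tnm2 only, at 53.4% with DMSO and 18% with UNC0638. At another start region of Slc7a7 a peak ranked at 2.26 in CK1750 DMSO and 37.6 in Tnm2 UNC0638 and was missing in the other lists. The genes with percentiles most like those of Mmp14 were Cbwd1 and Acadm, with a largest difference of 7.25 and 8.04 percentage points over the 4 lists.

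**Figure D3:**
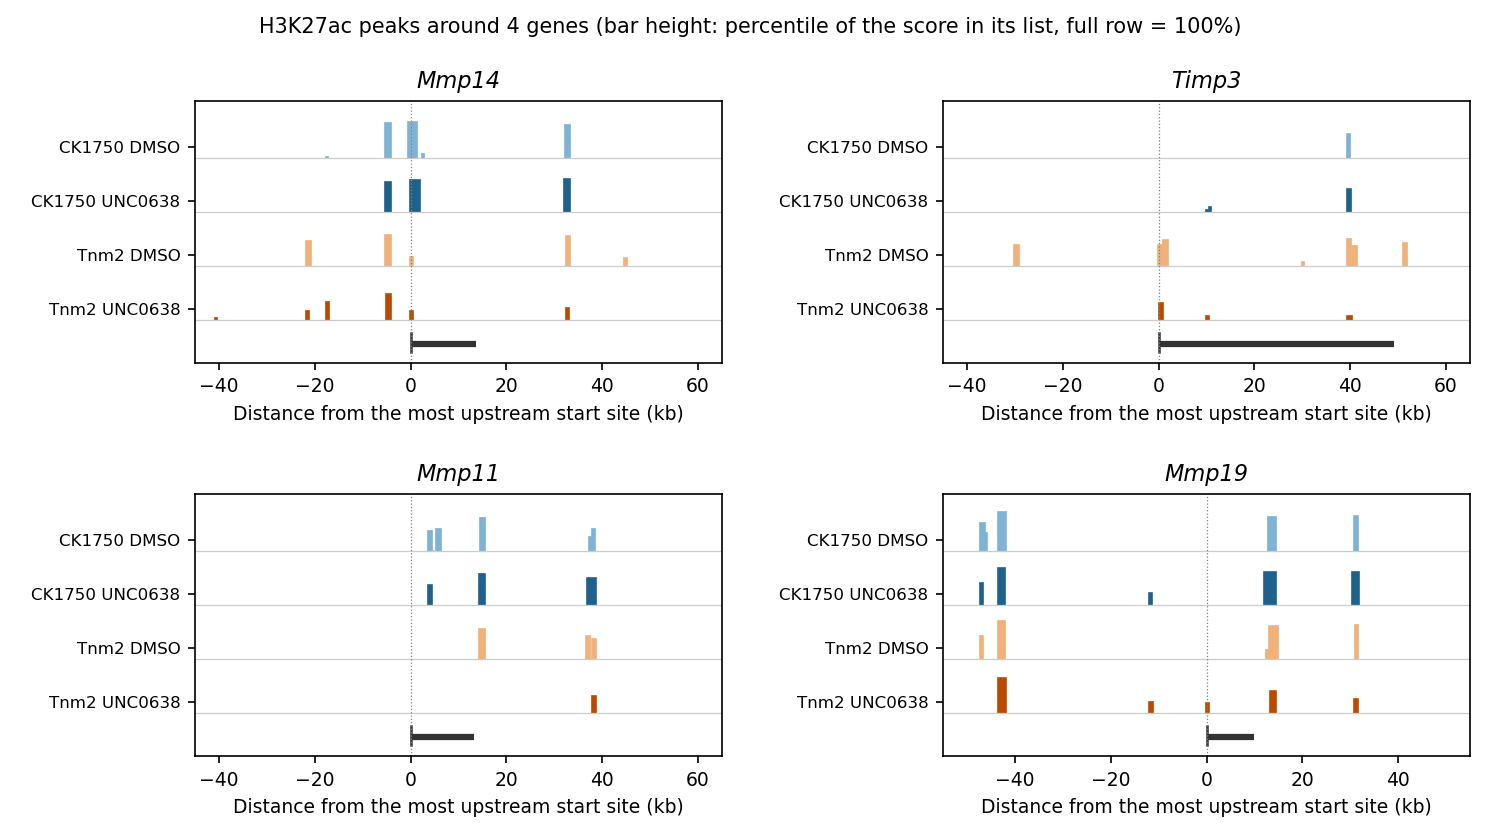
H3K27ac peaks around Mmp14, Timp3, Mmp11 and Mmp19 in the 4 lists (rows of each panel), by distance in kb from the most upstream start site, positive in the direction of transcription; bar width is peak width, bar height the percentile of the score within the list, and the dark line below is the gene. The Mmp14 promoter bar is tall and broad in CK1750 and short in Tnm2, the Timp3 promoter bars are in Tnm2 only, and the Mmp19 start site has a bar in Tnm2 UNC0638 only.

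Mmp15 encodes another membrane-type metalloproteinase and lies at chr8:95352268-95375080 on the plus strand. It had no promoter peak in any list. An intron peak about 6.9 kb downstream of the start site was listed in Tnm2 only, with a score of 159.96 (percentile 54.3) with DMSO and 50.78 (percentile 1.21) with UNC0638. The shared start region of Zfp319 and Usb1, about 20 kb upstream, carried a peak in all lists, at percentiles of 85.5, 86.7, 91.3 and 85.1. The absence at Mmp15 was thus in a neighbourhood with acetylated chromatin in each list.

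Mmp11, a metalloproteinase related to the stromelysins whose proenzyme is activated inside the cell, lies at chr10:75923222-75936496 on the minus strand. Its annotation holds 6 start sites, and the RefSeq start used for the sequence above lies about 4 kb downstream of the most upstream one. A peak over that start scored 120.29 in CK1750 DMSO (percentile 43.1) and 140.17 in CK1750 UNC0638 (percentile 42.8), and none was listed in Tnm2. CK1750 DMSO had 2 further peaks in introns of Mmp11 within the window, with scores of 139.65 and 50.05. The 2.5 kb window also takes in the peak at the start site of Smarcb1, a subunit of the SWI/SNF chromatin remodeller, since a start site of Mmp11 lies near it. That peak scored 360.88, 335.93 and 232.54 in CK1750 DMSO, CK1750 UNC0638 and Tnm2 DMSO (percentiles 70.5, 66.2 and 65.3) and was missing in Tnm2 UNC0638. By the window, Mmp11 had a promoter peak in 3 lists, but in Tnm2 DMSO it had that of Smarcb1 only. The Smarcb1 peak of CK1750 DMSO, at 2079 bp, was the farthest promoter peak inside the window, and the nearest peak outside it was one of Timp2 at 3113 bp, with a score of 65.69, in Tnm2 DMSO.

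Mmp19, a secreted metalloproteinase that cuts components of the basement membrane, lies at chr10:128790910-128800824 on the plus strand. A peak over its start site was listed in Tnm2 UNC0638, with a score of 69.12 (percentile 22.1), and in no other list. Only 43 protein-coding genes, 0.196%, had this pattern. About 11.6 kb upstream, between genes, a region was listed with UNC0638 in both lines, with a score of 84.14 (percentile 24.9) in CK1750 and 70.21 (percentile 23.3) in Tnm2, and with DMSO in neither. These were low-ranking peaks, which stood beside peaks at the start sites of Pym1, Tmem198b and Sarnp that were in all lists.

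The sequences of 300 bases at the middle of the parts shared by the lists are shown for the region upstream of Timp2, the highest-ranking off start sites near these genes, and for the one upstream of Mmp19, which was listed with UNC0638 only. They were read from mm10 on the strand of the gene, with capitals for the same motifs.
Upstream of Timp2, chr11:118361786-118362085, minus strand: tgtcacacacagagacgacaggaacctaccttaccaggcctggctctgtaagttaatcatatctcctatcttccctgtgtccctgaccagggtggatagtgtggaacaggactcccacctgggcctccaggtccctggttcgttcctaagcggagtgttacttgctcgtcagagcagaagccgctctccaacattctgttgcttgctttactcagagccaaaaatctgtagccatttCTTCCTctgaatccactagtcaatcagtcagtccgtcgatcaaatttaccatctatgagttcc
Upstream of Mmp19, chr10:128779104-128779403, plus strand: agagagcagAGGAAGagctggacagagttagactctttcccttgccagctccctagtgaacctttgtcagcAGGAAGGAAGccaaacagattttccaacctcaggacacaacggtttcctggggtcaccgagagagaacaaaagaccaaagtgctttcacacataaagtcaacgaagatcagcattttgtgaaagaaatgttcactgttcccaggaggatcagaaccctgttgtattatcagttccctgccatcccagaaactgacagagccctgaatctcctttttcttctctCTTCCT

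The first holds 1 ETS match, and the second holds 4, of which a pair overlap. Of the 4804 regions in all 4 lists and off start sites, 43.9% held an ETS match in their middle 300 bases. GC content was 49.7% and 46.7%, against a median of 49.7% over those regions. The part of the Mmp19 region shared by the lists, 661 bp, held 1 AP-1 match, which lies outside the bases shown.

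The gelatinases Mmp2 and Mmp9, which cut denatured collagen and basement membrane collagen, had no promoter peak in any list. Mmp2 (chr8:92827291-92853420, plus strand) had 0, 0, 1 and 0 peaks within 50 kb, the 1 peak being at the start site of Lpcat2 in Tnm2 DMSO, with a score of 55.75 (percentile 9.22). Mmp9 (chr2:164940780-164955850, plus strand) had 1 peak within 50 kb in each list, at the shared start region of Zfp335 and Zfp335os. This peak scored 3100 in 3 lists and 2762.64 in Tnm2 UNC0638, at percentiles of 99.8, 99.8, 99.9 and 99.9. Scores pile up at 3100, and all peaks tied there get the same, highest percentile of the tie. In the first 3 lists 610, 421 and 197 peaks scored 3100 or more. Mmp9 was thus without a promoter peak although one of the highest-ranking peaks of each list lay about 29 kb from its start site.

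With UNC0638, none of 4 genes with a promoter peak in CK1750 lost it and none of 5 without one gained it, against 4.85% lost and 3.02% gained over all genes. In Tnm2, Mmp11 was the 1 of 4 that lost it (17.7% over all genes), through the Smarcb1 peak. Mmp19 and Timp1 were the 2 of 5 that gained one in Tnm2, where 1.18% of all genes without one in DMSO did. With lists of equal length the count gained in Tnm2 was 3, as Mmp14 then had no peak in Tnm2 DMSO. The share over all genes was not computed for such lists, and the 1.18% holds for the full lists only. The gained peaks of Mmp19 and Timp1 scored below 100, and over all genes 0.431% gained a promoter peak at a score of at least 100 in Tnm2. Counting only peaks that cover a start site, CK1750 lost 1 (Timp1, against 5.16% over all genes) and gained 0 (4.72%), and Tnm2 lost 0 (18.2%) and gained the same 2 (1.86%).

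Between the lines, with DMSO, 5 genes had a promoter peak in either line. Timp1 had one in CK1750 only, against 7.04% of all such genes, and Timp3 in Tnm2 only, against 5.89%. With lists of equal length Timp1 had none in either line with DMSO, and Mmp14 had one in CK1750 only. With UNC0638, 6 genes had one in either line. Mmp11 had one in CK1750 only (18.2%), and Mmp19 and Timp3 in Tnm2 only (2.63%). Timp3 was the only one of the 9 genes on the same side of the comparison under both treatments, and with peaks on start sites alone Mmp11 joined it, on the CK1750 side. At a score of at least 100 this changed: Timp3 had a promoter peak in Tnm2 DMSO only, and Mmp14 had one in CK1750 only under both treatments.

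**Figure D4:**
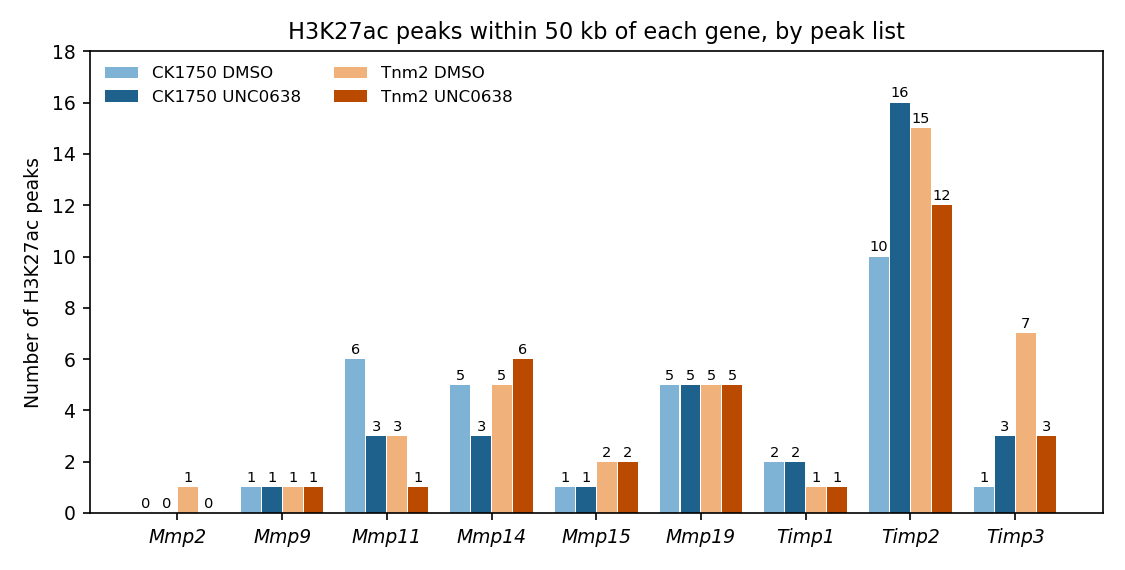
Number of H3K27ac peaks within 50 kb of each of the 9 genes (vertical axis) in the 4 lists (bars); counts of 1 merged list per group, without error bars. Timp2 holds 10 to 16 peaks per list, Mmp19 has 5 in each, and Mmp2 and Mmp9 have 1 at most.

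Over the 9 neighbourhoods there were 31 peaks in CK1750 DMSO, 34 in CK1750 UNC0638, 40 in Tnm2 DMSO and 31 in Tnm2 UNC0638, covering 39.0, 48.0, 42.6 and 36.0 kb. Timp2 held 32.3%, 47.1%, 37.5% and 38.7% of them. Without Timp2 the counts were 21, 18, 25 and 19, so that the higher count of CK1750 UNC0638 than of CK1750 DMSO rests on Timp2. With the 18794 highest-scoring peaks of every list the counts were 25, 26, 29 and 31, and Tnm2 UNC0638 was then above Tnm2 DMSO. The lower count of Tnm2 UNC0638 in the full lists thus went with its shorter list. The whole lists covered 28.5, 31.6, 31.8 and 22.9 Mb, so their covered length changed in the same directions as that near the 9 genes. The mean was 3.44, 3.78, 4.44 and 3.44 peaks per gene, against 3.28, 2.98, 3.52 and 2.28 over all protein-coding genes. These means include the many peaks of Timp2, and the medians were 2, 3, 3 and 2, against 2 in every list over all genes. At least 1 peak was found near 8, 8, 9 and 8 of the genes, against 74.3%, 72.7%, 74.3% and 68.7% of all genes. Of these peaks, 22, 20, 23 and 20 lay within 2.5 kb of a start site of any gene, and 14, 14, 18 and 15 of those were at other genes than the 9. In the whole lists 14748 of 27367, 13668 of 24601, 15348 of 30641 and 10922 of 18794 peaks lay that near to a start site.

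Joined over the lists, the peaks formed 48 regions, of which 17 (35.4%) were in all 4 lists, against 34.2% of 37710 regions in the genome. Of these 17, 9 covered a start site of another gene, 2 that of Mmp14 or Timp2, and 6 covered none. The 2 regions listed with UNC0638 in both lines and with DMSO in neither, near Mmp19 and Timp3, were 4.17% of the 48, against 0.464% of all regions. Their peaks were low-ranking, at percentiles of 24.9 and 23.3 near Mmp19 and of 9.38 or lower near Timp3. With lists of equal length the Timp3 region was no longer listed in CK1750 UNC0638. The share over all regions was not computed for such lists. No region was listed with DMSO in both lines and with UNC0638 in neither, against 2.97% of all regions, so few were to be found among 48.

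Other genes of the pathway were described by the same promoter window. Over all protein-coding genes, 39.3% had a promoter peak in all 4 lists and 46.0% in none. The shares per list were 50%, 49.1%, 49.4% and 41.3%, lowest in Tnm2 UNC0638. Among 7 further metalloproteinases outside the cluster and Timp4, 3 of 8 (Mmp23, Mmp24 and Mmp28) had a promoter peak in all 4 lists and 5 had none in any. Of 9 genes of the chromosome 9 cluster, 8 had none, and Mmp13, a collagenase, had one in Tnm2 UNC0638, at a percentile of 1.78. Of 15 activators, receptors and other inhibitors, 8 had one in all 4 lists, among them Plaur, the urokinase receptor, at 99.4 to 99.9, and Furin, the protease that activates Mmp14, at 98.1 to 99.8. The numbers per list were 10, 10, 10 and 8. Plat, which encodes a plasminogen activator, ranked at 63.2, 59.7 and 46.4 and had none in Tnm2 UNC0638. Lrp1, a receptor that clears proteases, had a peak in CK1750 only, at 64.2 and 49.6, and Pcsk5, a proprotein convertase, in Tnm2 DMSO only, at 2.02.

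Of 10 ADAM and ADAMTS proteases, several of which Timp3 can block, 6, 7, 6 and 5 had a promoter peak in the order of the lists. The shares over all genes were 50%, 49.1%, 49.4% and 41.3%. In all 4 lists 5 of the 10 had one, against 39.3% of all genes. Adam12, as the opposite of Timp3, had one in CK1750 only, at percentiles of 69.6 and 53.5. Adam8 had one in CK1750 UNC0638 only, at 31.2, and Adamts1 in Tnm2 DMSO only, at 41.6. All 8 AP-1 and ETS factor genes, whose products are known to bind promoters of this family, had a promoter peak in every list, against 39.3% of all genes.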

How the data were processed

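H3K27ac ChIP-seq of CK1750 and Tnm2 cells was processed by the authors with bowtie2 to mouse build mm10, and MACS 1.4.2 was used to call peaks, at a cutoff of 1e-05 on the P value. The deposited lists hold the position of each peak and its score, -10 log10 of the P value, so that the cutoff is a score of 50 and scores pile up at 3100. Which libraries entered a list, and whether input DNA served as control, is not stated. The study's methods give more biological replicates than the labels number. No read totals are part of the lists, so depth is unknown, and depth and treatment cannot be told apart. The other 21 samples, H3K9me2 and input DNA in 8 groups, were not used here, and 0 columns of per-sample values were left unused.

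Start sites of all transcripts came from GENCODE release M 21. Of 101372 peaks on 21 chromosomes, 0 ended beyond the GRCm38 length. A promoter peak overlapped 2.5 kb on each side of a start site of the gene, and a neighbourhood was the gene with 50 kb on each side. Regions were peaks of any list joined where they overlapped by 1 bp or more. All 9 genes are named with their values. Other pathway genes are named where a promoter peak was in some lists only, with a few constant genes added after their values were seen. The genes, lists and alternatives were chosen with earlier results of these data known. As each group has 1 list, no test was run. Alternatives were a score of at least 100, equal list sizes, promoter windows of 1 and 5 kb, coding transcripts only, neighbourhoods of 25 and 100 kb, peaks merged within 1 kb, 2 other rankings, and percentiles within lists of equal length, chosen after seeing the data. Python 3.11.15, numpy 2.4.6, pandas 2.3.3 and matplotlib 3.10.9 were used.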

Additional observations from a re-analysis of the deposited data

Results flagged for a closer look

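Of 24 changes from DMSO to UNC0638 that could be set side by side between the lines, 10 had opposite signs in the full lists. These differences were not tested, there being 1 list per group, and the lists of Tnm2 differ more in length than those of CK1750. The covered length of the whole lists rose from 28.5 to 31.6 Mb in CK1750 and fell from 31.8 to 22.9 Mb in Tnm2. Over the 9 neighbourhoods it moved in the same directions. The median peak width rose from 835 to 1048 bp in CK1750 and from 831 to 1040.5 bp in Tnm2. Neither was computed over whole lists of equal length. With the 18794 highest-scoring peaks of every list, 3 of the 10 still had opposite signs: the covered length over all 9 neighbourhoods, and those at Mmp15 and Timp3. The other 7 did not, and for 1 of them, the Mmp14 percentile, equal lists gave no value in Tnm2. Over all 9 neighbourhoods the CK1750 peak number changed by 3 and that of Tnm2 by -9, but by 1 and 2 in equal lists, and the covered length by 9.08 kb and -6.55 kb, or 6.95 kb and -0.697 kb in equal lists. At Timp2 the number of peaks changed by 6 in CK1750 and -3 in Tnm2, but by 2 and 3 in equal lists. The percentile of its promoter peak differed by 9.02 and -3.95 percentage points, but by 15.0 and 9.71 in equal lists. At Timp3 the number of peaks changed by 2 in CK1750 and -4 in Tnm2, or 0 and -3 in equal lists, and the covered length by 1.03 kb and -3.66 kb, or 0.14 kb and -3.30 kb in equal lists. At Mmp14 the number of peaks changed by -2 in CK1750 and 1 in Tnm2, or 0 and 3 in equal lists, and the covered length by -0.452 kb and 0.454 kb, or 0.471 kb and 1.51 kb in equal lists. The percentile of its promoter peak differed by -8.85 and 2.14 percentage points, and in equal lists by -8.31 in CK1750, with no value for Tnm2. At Mmp15 the covered length changed by 0.475 kb in CK1750 and -0.837 kb in Tnm2, the same in equal lists.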

How the results depend on the processing

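Over 18 results, 94 alternative values were computed, of which 66 stayed close to the reported value and 28 moved. Close means within 1.5 times for a count and within the 95% counting interval of the percentile for a median. That interval rests on the number of peaks in the list, so it is narrow and does not measure the spread of a median over few genes. Counts that were 0 and stayed 0 are among the 66. With a score of at least 100, Tnm2 UNC0638 had 1 gene with a promoter peak, against 32.0% of all genes. Tnm2 then lost 2 of 3, against 27.7% over all genes, and gained 0, against 0.431%. With a promoter window of 1 kb Tnm2 lost 0, against 17.9%. Counting only peaks that cover a start site, CK1750 lost 1, against 5.16%, and Tnm2 lost 0, against 18.2%. Within 100 kb there were 61, 59, 70 and 50 peaks in the order of the lists. Without Timp2 there were 18 peaks within 50 kb in CK1750 UNC0638, 25 in Tnm2 DMSO and 19 in Tnm2 UNC0638, and at a score of at least 100 there were 14 in Tnm2 UNC0638. The median percentile was 60.6, 54.5, 46.1 and 15.4 among peaks near any start site, and 74.8, 73.5, 71.9 and 17.3 for the widest peak ranked by width. For peaks on a start site of the gene it was 60.4, 68.9 and 45.0 in the first 3 lists. Within lists of equal length it was 67.6, 59.3 and 43.4 there. The start-site alternative, the one without Timp2 and the percentile within equal lists were chosen after seeing the data. Keeping the 18794 highest-scoring peaks of every list left each count within 1.5 times the reported one. There were then 3, 3, 3 and 5 genes with a promoter peak and 3 gained in Tnm2, and shares over all genes were not computed for such lists. The order of the Tnm2 peak counts within 50 kb was turned (29 with DMSO, 31 with UNC0638). No paired analysis was possible because a group has 1 list without replicates, and no replicate could be left out for the same reason. The unknown depth limits every absence: whether a peak that is not listed would pass the cutoff at another depth cannot be told. The cause of the moved values was not tested.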
